A study of Mirounga angustirostris with 8 samples.

Results

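Genes that make ribosomes were examined in a back muscle, the longissimus dorsi, of adult female northern elephant seals (NES) at the start and at the end of the annual molt. The set was a written list of 40 gene symbols for RNA polymerase I and ribosome biogenesis, matched to the symbols of the read count table, with a summed count of at least 80 reads over all libraries. Of these, 39 had a row in the table, all 39 reached that count, and all 39 passed the filter on low counts that left 14314 genes of the whole table for testing. The large-subunit assembly factor PPAN had no row under its symbol and was not analysed here.

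RNA from muscle biopsies of 7 wild seals was sequenced in 8 libraries, 4 per group. The pre-molt group (early molt in the sample labels) held seals 5572, 5842, 6762 and C497, sampled within 5 days of coming ashore, and the post-molt group (late molt) held seals 4448, 5572, 9678 and X410, sampled near the end of the molt. The late biopsies came after a mean of 34 days, which the study counts from the first biopsy and not from coming ashore. The labels give this mean over all animals sampled and not for these 4 seals. Seal 5572 was the only animal with a library in both groups, so the groups were compared unpaired. All seals were sedated and biopsied in the same way according to the study's methods, and the libraries were those with the most uniquely mapped reads out of a larger set, since RNA of some samples was of low quality. Library totals were 37905311 to 56150332 counts pre-molt and 30774895 to 61229829 counts post-molt, and single genes of the list held from 48 (SDAD1, pre-molt 5842) to 14765 counts (NCL, post-molt 4448) in a library. Reads were aligned to the genome of another seal, the Hawaiian monk seal, by the authors. Levels are CPM, read counts relative to the TMM-scaled library size, always in the order of seals above. Fold changes divide post-molt by pre-molt, are in log2 units and carry the standard error (SE) of the edgeR fit.

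Ribosome biogenesis begins in the nucleolus, where RNA polymerase I copies ribosomal DNA into a long precursor RNA. Small nucleolar ribonucleoproteins (snoRNPs) modify this precursor, and large sets of assembly factors cut it, fold it and join it with ribosomal proteins into the small and the large subunit. In skeletal muscle the pathway is known to follow loading and nutrient supply, since the number of ribosomes limits how much protein a fiber can make. Poly-A selected RNA holds the messenger RNAs of these factors and not the precursor itself, so the rate of rRNA synthesis was not measured.

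The comparison asked whether the messages of this machinery differed in muscle after about a month of fasting and reduced activity on land. At an edgeR adjusted p under 0.05, 0 of the 39 genes passed (0.349% of all genes tested), and the smallest adjusted p was 0.217, for POLR1D. At an unadjusted p under 0.05, 3 of 39 (7.69%) were lower post-molt (POLR1D, NPM1 and EBNA1BP2), against 6.22% of all genes tested, and 1 of 39 (2.56%) was higher (NOP14), against 5.20%. DESeq2 called 0 of the 39 lower (3.16% of the genes it gave an adjusted p) and 0 higher (3.35%), with 4 lower (the 3 above and GNL3, against 6.06% of all genes) and 1 higher (5.15%) at an unadjusted p under 0.05. Limma-voom called 0 (0.657% of all genes), with 4 lower (8.21% of all genes) and 1 higher (5.77%) at an unadjusted p under 0.05. The groups did not overlap in 7 of 39 genes (9.15% of all genes). The 4 post-molt libraries lay wholly below the 4 pre-molt libraries in 5 genes (12.8% of 39, 5.11% of all genes), namely POLR1D, NPM1, EBNA1BP2, WDR12 and GNL3. They lay wholly above in 2 genes (5.13% of 39, 4.04% of all genes), TAF1B and NOP14.

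The fold changes of the 39 genes were small. They ran from -0.99 (POLR1D) to 0.68 (MYC), and 5 of them exceeded 0.5 log2 units in size, POLR1D, WDR12, EBNA1BP2 and NPM1 downward and MYC upward, and 0 exceeded 1 log2 unit (14.6% of all genes). For 33 of 39 genes (84.6%) the 95% interval lay between -1 and 1 log2 unit, as it did for 37.6% of all genes tested, so a doubling or halving was outside the interval of most of them. The 39 genes were also more abundant than the genes tested as a whole (pre-molt mean log2 CPM 4.86 against 3.08). These shares were not matched on level, so they do not set the list apart from other genes of like abundance. The median was -0.12, beside -0.04 over all genes tested, and 28 of 39 fold changes were negative (71.8%, against 53.6% of all genes). The count of negative values was 28 of 39 also with RLE factors, with upper-quartile factors and with the 20 most abundant genes left out, and 19 of 39 with library size alone, where the median of all genes moved from -0.04 to 0.10. The 9 genes that turned positive there were POLR1B, POLR1E, RRN3, TAF1C, FBL, GAR1, UTP14A, NIP7 and NOC2L, none by more than 0.13 log2 units. Relative to the median of all genes, 25 of the 39 were lower under each of these 5 scalings. A change of scaling moves the fold changes of all genes by similar amounts. This count could therefore hardly differ between scalings and is no check on them.

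**Figure D1:**
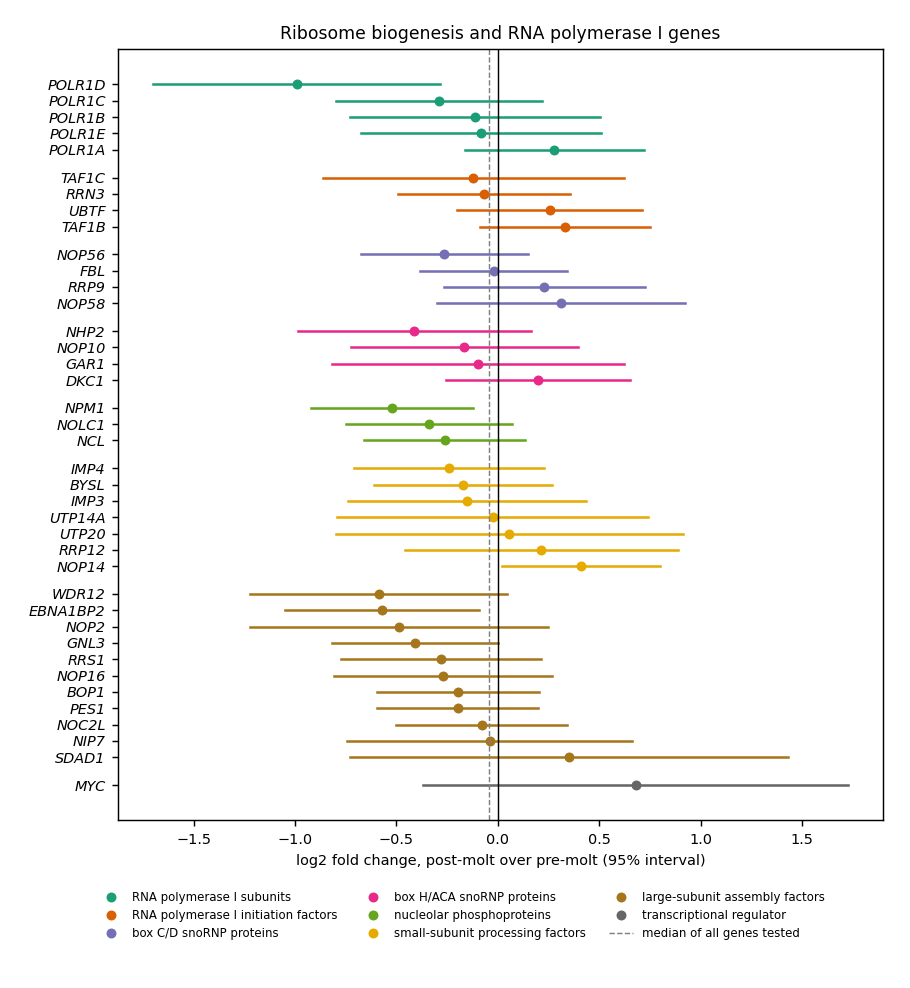
Log2 fold change, post-molt over pre-molt, of 39 ribosome biogenesis and RNA polymerase I genes (points), with the 95% interval of the edgeR fit (lines), grouped and coloured by role. The dashed line is the median of all genes tested (-0.04). The intervals of POLR1D, NPM1, EBNA1BP2 and NOP14 leave out 0 and none of the 39 passed after adjustment over all genes.

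Among subunits of RNA polymerase I, POLR1D was the gene with the smallest p of the whole list. It codes for a small assembly subunit that RNA polymerase III also uses. Its values were 11.8, 21.3, 11.65 and 10.7 CPM pre-molt and 7.78, 8.13, 4.39 and 7.53 CPM post-molt. Every pre-molt library was above every post-molt library, pre-molt 5842 was the highest and post-molt 9678 the lowest. The means were 13.9 ± 4.99 before and 6.96 ± 1.73 CPM after the molt (SD, n = 4 per group; -0.99 ± 0.33 log2 units, adjusted p = 0.217 in edgeR, 95% interval -1.70 to -0.28). Without pre-molt 5842 the fold change was -0.68, and without both 5842 and 9678, whose reads mapped uniquely less often than those of the other libraries of their groups, it was -0.51.

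The catalytic subunit genes did not follow POLR1D. POLR1A, the largest subunit, had 39.85, 39.1, 49.5 and 54.5 CPM pre-molt and 58.97, 52.55, 67.5 and 43.02 CPM post-molt, with overlapping groups and a higher mean post-molt (45.7 ± 7.499 before and 55.5 ± 10.3 CPM after the molt; 0.28 ± 0.20 log2 units, adjusted p = 0.69 in edgeR). POLR1B, which completes the active center, had 26.4, 23.5, 47.55 and 30.4 CPM pre-molt and 29.9, 21.5, 43.5 and 23.3 CPM post-molt. Its highest values were in pre-molt 6762 and post-molt 9678, and the groups overlapped (31.9 ± 10.8 before and 29.6 ± 9.96 CPM after the molt; -0.11 ± 0.28 log2 units, adjusted p = 0.943 in edgeR). POLR1C, the partner of POLR1D in both polymerases, was at 16.1 to 20.1 CPM pre-molt and 10.8 to 18.6 CPM post-molt (-0.29 ± 0.23), and the polymerase I subunit POLR1E at 11.9 to 14.4 CPM pre-molt and 9.83 to 18.8 CPM post-molt (-0.08 ± 0.27).

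Initiation factors bring the polymerase to ribosomal DNA. UBTF, which bends and occupies the ribosomal genes, had 97.01, 56.96, 80.1 and 70.8 CPM pre-molt and 115, 83.7, 87.6 and 77.9 CPM post-molt, with pre-molt 5842 the lowest and post-molt 4448 the highest library (0.26 ± 0.21 log2 units, adjusted p = 0.742 in edgeR). RRN3, the factor that makes the polymerase competent to start and is known as a target of growth signaling, had 42.7, 54.3, 62.8 and 46.3 CPM pre-molt and 57.2, 42.45, 53.3 and 43.6 CPM post-molt. The ranges of RRN3 nearly coincided, and its interval ran from -0.49 to 0.36 (-0.07 ± 0.20 log2 units, adjusted p = 0.95 in edgeR). TAF1B, a subunit of the promoter selectivity factor, had 34.3, 33.4, 29.5 and 30.7 CPM pre-molt and 34.7, 35.5, 38.99 and 51.7 CPM post-molt, so that its groups did not overlap, with lowest post-molt and highest pre-molt values of 34.7 and 34.3 CPM (0.33 ± 0.19 log2 units, adjusted p = 0.579 in edgeR). TAF1C, of the same factor, spread over 17.1 to 24.9 CPM pre-molt and 8.48 to 30.5 CPM post-molt (-0.12 ± 0.34), with post-molt 4448 highest and post-molt 9678 lowest of all libraries.

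Proteins of the box C/D snoRNPs, which methylate rRNA, held the steadiest gene of the list. FBL, the methyltransferase fibrillarin, had 48.03, 44.7, 45.6 and 39.8 CPM pre-molt and 42.1, 47.00, 42.9 and 43.6 CPM post-molt. Its SD within groups was 0.10 log2 units, the smallest of the 39, and its interval was -0.38 to 0.34 (-0.02 ± 0.17 log2 units, adjusted p = 0.983 in edgeR). NOP56, a core scaffold protein, had 54.85, 41.2, 42.75 and 56.5 CPM pre-molt and 46.1, 43.4, 36.1 and 37.1 CPM post-molt (-0.26 ± 0.19 log2 units, adjusted p = 0.689 in edgeR), and its partner NOP58 had 9.701, 7.43, 9.56 and 13.8 CPM pre-molt and 16.2, 11.3, 10.6 and 12.1 CPM post-molt (0.31 ± 0.28 log2 units, adjusted p = 0.779 in edgeR). Both overlapped between groups, with a lower mean of NOP56 and a higher mean of NOP58 post-molt. RRP9, a protein of the snoRNP that guides the first cuts of the precursor, was at 22.8 to 34.4 CPM pre-molt and 24.3 to 41.6 CPM post-molt (0.23 ± 0.23).

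Box H/ACA snoRNPs convert uridines of rRNA to pseudouridine. The synthase DKC1 had 23.2, 20.1, 26.05 and 32.1 CPM pre-molt and 34.1, 27.7, 27.2 and 27.3 CPM post-molt, with post-molt 4448 above the other 3 post-molt libraries and pre-molt C497 above those 3 as well (0.20 ± 0.21 log2 units, adjusted p = 0.826 in edgeR). NHP2 had 87.7, 122, 62.5 and 58.7 CPM pre-molt and 42.05, 64.85, 64.4 and 77.4 CPM post-molt, a spread that was widest before the molt (82.7 ± 29.2 before and 62.2 ± 14.7 CPM after the molt; -0.41 ± 0.26 log2 units, adjusted p = 0.635 in edgeR), and without pre-molt 5842 its fold change was -0.14. GAR1 (-0.10 ± 0.33) and NOP10 (-0.16 ± 0.26), the other core proteins of these particles, overlapped between groups.

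The nucleolar phosphoproteins NPM1, NOLC1 and NCL each had a lower mean post-molt under all 5 scalings. NPM1, a chaperone of nucleolar assembly, had 51.1, 64.96, 49.9 and 64.4 CPM pre-molt and 38.5, 38.8, 36.2 and 46.7 CPM post-molt. No post-molt library reached the lowest pre-molt value, and the means were 57.6 ± 8.203 before and 40.05 ± 4.62 CPM after the molt (-0.52 ± 0.18 log2 units, adjusted p = 0.256 in edgeR, 95% interval -0.92 to -0.12). With 1 library left out at a time its fold change stayed between -0.60 and -0.44, with unadjusted p from 0.0124 to 0.0433 in the edgeR fits. It was -0.37 (unadjusted p = 0.0987 in edgeR) with library size alone, -0.39 (0.0912) without pre-molt 5842 and post-molt 9678, and -0.44 (0.0575) without pre-molt 5842 and post-molt 4448. Processed copies of NPM1 are known in mammalian genomes, and the aligner does not count a read that matches several places, so its level is uncertain. NOLC1, which binds both kinds of snoRNP, had 34.8, 29.9, 40.4 and 35.8 CPM pre-molt and 27.3, 23.99, 31.6 and 28.4 CPM post-molt (-0.34 ± 0.19 log2 units, adjusted p = 0.557 in edgeR), and nucleolin, NCL, had 183, 216, 246 and 219.5 CPM pre-molt and 211.5, 174, 183 and 153 CPM post-molt (-0.26 ± 0.18 log2 units, adjusted p = 0.672 in edgeR). Both genes overlapped between groups, in pre-molt 5842 and post-molt 9678 for NOLC1 and in pre-molt 5572 and post-molt 4448 for NCL.

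Factors that process the small-subunit precursor were mixed in direction, with 4 of 7 negative and a median of -0.03. NOP14, an assembly factor of the early small-subunit particle, had 92.4, 68.9, 85.25 and 93.3 CPM pre-molt and 120.4, 101, 128 and 102.5 CPM post-molt. All 4 post-molt libraries were above all pre-molt libraries, of which 5842 was lowest (84.97 ± 11.3 before and 113 ± 13.2 CPM after the molt; 0.41 ± 0.18 log2 units, adjusted p = 0.396 in edgeR, 95% interval 0.02 to 0.80). It was the 1 gene of the list with a higher level at an unadjusted p under 0.05, and that p was passed in 4 of 8 fits with 1 library left out. IMP4, which helps the guide snoRNP pair with the precursor, had 56.2, 66.5, 47.8 and 55.8 CPM pre-molt and 59.3, 50.97, 31.6 and 49.6 CPM post-molt, with post-molt 9678 far below the rest (-0.24 ± 0.22 log2 units, adjusted p = 0.778 in edgeR), and its partner IMP3 was at 20.3 to 44.4 CPM pre-molt and 21.6 to 37.4 CPM post-molt (-0.15 ± 0.27).

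The remaining small-subunit factors differed more between libraries than between groups. The scaffold protein UTP20 ranged from 14.1 to 32.5 CPM pre-molt and 11.7 to 41.8 CPM post-molt (0.06 ± 0.39), with the 3 highest values in post-molt 9678, pre-molt C497 and pre-molt 6762. RRP12, which accompanies the small subunit out of the nucleus, had 31.04 CPM in pre-molt 5842 against 67.5 to 115.5 CPM in the other 7 libraries (0.21 ± 0.31, and -0.01 without pre-molt 5842). UTP14A (-0.03 ± 0.35) and the late factor BYSL (-0.17 ± 0.20) overlapped between groups.

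Of the large-subunit assembly factors, 10 of 11 were negative under TMM scaling, with a median of -0.27. With library size alone NOC2L and NIP7 were positive, at 0.08 and 0.11. EBNA1BP2, an early assembly factor, had 28.03, 33.2, 25.5 and 23.1 CPM pre-molt and 20.01, 20.6, 13.55 and 19.75 CPM post-molt, with post-molt 9678 apart from the other post-molt libraries (27.5 ± 4.31 before and 18.5 ± 3.31 CPM after the molt; -0.57 ± 0.22 log2 units, adjusted p = 0.315 in edgeR, 95% interval -1.05 to -0.09). GNL3, the nucleolar GTPase nucleostemin known from dividing and progenitor cells, had 37.5, 38.3, 43.4 and 47.00 CPM pre-molt and 36.6, 26.3, 33.7 and 28.7 CPM post-molt, where post-molt 4448 came within 1 CPM of the lowest pre-molt library (41.6 ± 4.47 before and 31.3 ± 4.65 CPM after the molt; -0.41 ± 0.19 log2 units, adjusted p = 0.44 in edgeR). Both genes had non-overlapping groups under TMM scaling, and neither passed.

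WDR12, BOP1 and PES1 form a complex needed for maturation of the large subunit. WDR12 had 13.8, 14.4, 14.9 and 19.9 CPM pre-molt and 5.903, 11.3, 12.3 and 12.5 CPM post-molt, and post-molt 4448 was the lowest library by far (15.8 ± 2.82 before and 10.5 ± 3.101 CPM after the molt; -0.59 ± 0.29 log2 units, adjusted p = 0.486 in edgeR). Without post-molt 4448 its fold change was -0.39. BOP1 was at 70.6 to 85.7 CPM pre-molt and 59.8 to 88.3 CPM post-molt (-0.20 ± 0.18) and PES1 at 56.04 to 77.3 CPM pre-molt and 48.1 to 65.5 CPM post-molt (-0.20 ± 0.18), so the groups of these partners overlapped where those of WDR12 did not.

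Of the other large-subunit genes, the rRNA methyltransferase NOP2 was at 15.1 to 28.2 CPM pre-molt and 7.87 to 25.5 CPM post-molt (-0.49 ± 0.34, and -0.83 without post-molt 4448, where its unadjusted p was 0.0236 by edgeR). RRS1 (-0.28 ± 0.23), NOP16 (-0.27 ± 0.25), NOC2L (-0.08 ± 0.19) and NIP7 (-0.04 ± 0.32) overlapped between groups. NOP16 turned to 0.04 without pre-molt 5842 and post-molt 9678. SDAD1 was the exception in direction (0.35 ± 0.50) and the most variable gene of the list, with an SD within groups of 0.95 log2 units, from 1.505 CPM in pre-molt 5842 to 13.7 CPM in post-molt 9678.

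MYC, a transcription factor that drives many genes of this pathway, had 13.3, 6.52, 17.7 and 20.5 CPM pre-molt and 44.2, 15.3, 7.26 and 26.1 CPM post-molt. Post-molt 4448 was the highest library and pre-molt 5842 the lowest, and post-molt 9678 was below 3 of the 4 pre-molt libraries. The means were 14.5 ± 6.09 before and 23.2 ± 15.99 CPM after the molt, with a fold change of 0.68 ± 0.48 and an interval of -0.37 to 1.73 (edgeR adjusted p = 0.679). Without post-molt 4448 the fold change was 0.17, without post-molt 9678 it was 0.98 (unadjusted p = 0.0352 in edgeR), and without both pre-molt 5842 and post-molt 4448 it was -0.07. Spread within groups was 0.94 log2 units, almost as wide as that of SDAD1. With all 8 libraries, no difference in MYC could be told from the variation between seals.

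**Figure D2:**
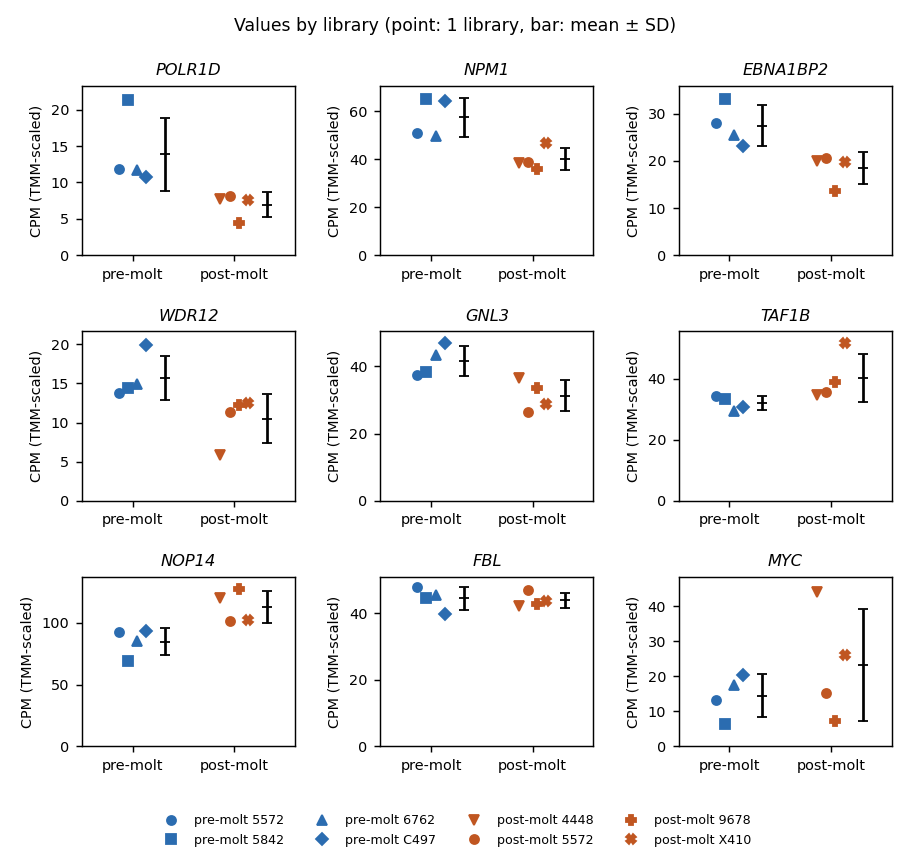
TMM-scaled CPM in each library (4 pre-molt in blue, 4 post-molt in orange, 1 marker shape per library, with circles for seal 5572 in both groups) for the 7 genes without overlap between groups and for FBL and MYC; bars are mean ± SD of 4 libraries. FBL lies between 39.8 and 48.0 CPM in all 8 libraries, whereas MYC spans 6.52 to 44.2 CPM.

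Within seal 5572, which gave a biopsy before and after the molt, 28 of the 39 genes were lower in the post-molt library (71.8%), beside 49.6% of all genes tested. The difference in log2 CPM was -0.53 for POLR1D, -0.40 for NPM1, -0.44 for EBNA1BP2, -0.51 for GNL3 and -0.28 for WDR12. It was 0.13 for NOP14 and 0.05 for TAF1B. These 7 are the genes whose groups did not overlap, and both libraries are part of those groups. Each therefore had to take the sign of its group comparison in this seal, which adds no support. This is 1 animal with 1 biopsy at each time, so these values carry no error.

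Summed over the 39 genes, the level was 1517 to 1633 CPM pre-molt and 1403 to 1682 CPM post-molt. Of the 39 genes, 12 were lowest in post-molt 9678 and 11 in pre-molt 5842. The same counts over all genes were not made, so whether these are particular to the list is not known. Post-molt 9678 also had the fewest genes with a count (12677). It had the lowest mean log2 CPM of the other small-subunit factors, other large-subunit factors, exosome genes and RNA polymerase III genes described below. Highest values fell in pre-molt 5842 for 10 genes and in post-molt 4448 for 9. Pre-molt 5842 was thus both the lowest library for genes such as RRP12, SDAD1 and MYC and the highest for others such as NHP2, NOP2 and POLR1D.

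**Figure D3:**
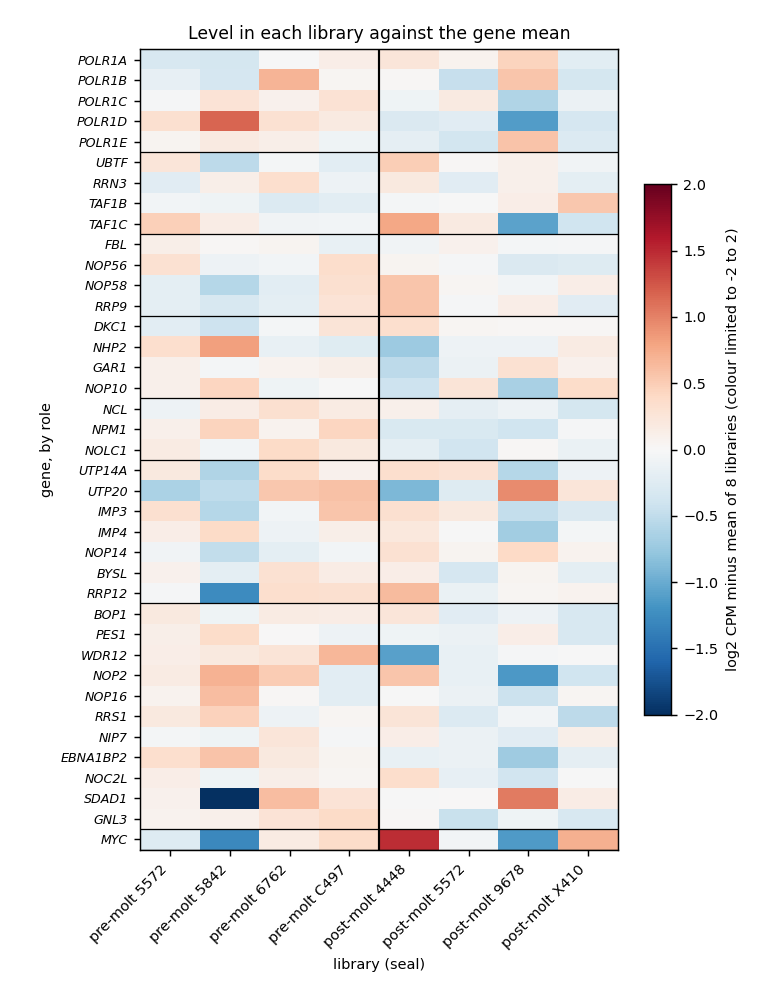
Level of each of the 39 genes (rows, grouped by role between black lines) in each library (columns, pre-molt left and post-molt right of the vertical line), as log2 CPM minus the mean of the 8 libraries (red above, blue below). No prior count was added in this figure, and colours are limited at both ends of the scale. Pre-molt 5842 is the lowest library in 11 genes and the highest in 10, and post-molt 9678 is the lowest in 12. The same counts over all genes were not made.

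Muscle was the source by its markers, since 8 of the 10 fiber genes listed had a row and together held 182402 to 286650 CPM pre-molt and 168241 to 239652 CPM post-molt. Of these 8, the actin ACTA1, the creatine kinase CKM and the troponin TNNT3 were lower and the myoglobin gene MB was higher at an unadjusted p under 0.05 in edgeR, with a median of -0.55 over the list (edgeR called 0, DESeq2 1 lower and 1 higher). Markers of fibroblasts and fibro-adipogenic progenitors were at 539 to 1655 CPM pre-molt, highest in 5842, and at 266 to 540 CPM post-molt, lowest in 4448. Of these 11, 7 were lower at an unadjusted p under 0.05 in edgeR, with a median of -1.31, and 1 was positive (SFRP2, 0.22). For all the marker lists, the shares of all genes tested at that p were 6.22% lower and 5.20% higher. Adipocyte markers summed to 54.7 to 201 CPM and 29.0 to 101 CPM (CIDEC lower of 5 tested, and LEP at 2 counts in all), and proliferation markers to 58.5 to 76.6 CPM and 33.7 to 57.2 CPM (MCM3 lower of 7 tested). The ranges of leukocyte (25.1 to 74.9 and 31.7 to 81.1 CPM, 0 of 8), endothelial (433 to 567 and 389 to 449 CPM, KDR lower of 8), pericyte and smooth muscle (68.4 to 168 and 69.2 to 198 CPM, 0 of 7) and satellite cell markers (28.4 to 44.2 and 33.3 to 56.6 CPM, 0 of 4) overlapped between groups. Fiber, adipocyte and fibroblast ranges overlapped too, the last only at their edges (539.4 CPM lowest pre-molt, 539.6 CPM highest post-molt). Those of the proliferation markers did not, by a narrow gap (58.5 CPM lowest pre-molt, 57.2 CPM highest post-molt). Of the 7 tested, 6 were negative, with MCM5 at -0.01, and MCM2 was positive (0.86). Among the 6, MKI67, CDK1 and RRM2 held only 122, 206 and 166 counts in all. The part of these cells in the values of the biogenesis genes was not tested. In a whole biopsy, fewer cells of a type and less RNA per cell cannot be told apart.

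In the other gene lists of the pathway, edgeR called 0 genes. Of 46 other small-subunit processing factors tested, 29 were negative (median -0.22), 6 were lower and 0 higher at an unadjusted p under 0.05, where 6.22% of all genes were lower. These were AATF, UTP18, WDR46, PWP2, TBL3 and DDX49. UTP18, a small-subunit processome protein, had 57.9, 73.8, 61.1 and 62.2 CPM pre-molt and 44.2, 44.7, 42.25 and 44.7 CPM post-molt (-0.54 ± 0.17 log2 units, adjusted p = 0.192 in edgeR). AATF, which works in early small-subunit processing and in stress signaling, was at 39.5 ± 9.55 before and 23.4 ± 4.24 CPM after the molt (-0.76 ± 0.23 log2 units, adjusted p = 0.178 in edgeR). DESeq2 called 4 of these 46 lower, UTP18 (adjusted p = 0.0222), AATF (0.0363), and WDR46 (0.0341) and PWP2 (0.0362) of the same processome, beside 3.16% of the genes to which it gave an adjusted p. Of 45 other large-subunit assembly factors, 30 were negative (median -0.15) and 1 was lower at an unadjusted p under 0.05 (2.22%), the nucleolar protein SURF6 (-0.69 ± 0.22 log2 units, adjusted p = 0.209 in edgeR, DESeq2 adjusted p = 0.0465). WDR18 was next in that list (-0.46 ± 0.21 log2 units, adjusted p = 0.445 in edgeR).

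The exosome, which trims the ends of rRNA precursors, had 13 of 14 genes negative (53.6% of all genes) and a median of -0.29. At an unadjusted p under 0.05 in edgeR, 3 were lower (21.4%, against 6.22% of all genes), EXOSC4, EXOSC6 and EXOSC5. Of these, EXOSC4 (19.01 ± 7.82 before and 10.1 ± 2.35 CPM after the molt; -0.92 ± 0.32 log2 units, adjusted p = 0.254 in edgeR) and EXOSC6 (9.28 ± 0.595 before and 4.28 ± 2.24 CPM after the molt; -1.11 ± 0.41 log2 units, adjusted p = 0.293 in edgeR) did not pass. RNA polymerase III, which makes the smallest rRNA and transfer RNAs, had 13 of 21 genes negative with a median of -0.18. Of these 21, 2 were lower at an unadjusted p under 0.05 in edgeR (9.52%, against 6.22% of all genes). POLR3K, one of its small subunits, had 50.8, 48.65, 42.99 and 38.7 CPM pre-molt and 22.1, 25.9, 24.7 and 35.6 CPM post-molt (-0.74 ± 0.21 log2 units, adjusted p = 0.141 in edgeR, DESeq2 adjusted p = 0.0158), and POLR3C was at 54.4 ± 6.69 before and 36.8 ± 11.1 CPM after the molt (-0.56 ± 0.23 log2 units, adjusted p = 0.36 in edgeR).

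The 13 other RNA polymerase I genes had a median of -0.08, with 7 negative and 1 lower (7.69%, against 6.22% of all genes). It was ZNRD1, a small subunit of the enzyme (19.6 ± 3.49 before and 12.1 ± 2.74 CPM after the molt; -0.69 ± 0.25 log2 units, adjusted p = 0.28 in edgeR). POLR2E, a subunit shared by all 3 nuclear polymerases, was at 57.8 ± 6.997 before and 69.1 ± 6.68 CPM after the molt (0.26 ± 0.18 log2 units, adjusted p = 0.661 in edgeR). DESeq2 called 0 genes of the exosome and of this list. In the MYC network 6 of 8 genes were positive (median 0.27) and 1 was higher at an unadjusted p under 0.05 (12.5%, against 5.20% of all genes). It was the carbohydrate-responsive factor MLXIPL (64.4 ± 22.1 before and 117 ± 39.5 CPM after the molt; 0.86 ± 0.29 log2 units, adjusted p = 0.23 in edgeR), whereas its relative MLXIP was at 309 ± 139.8 before and 212 ± 29.9 CPM after the molt (-0.55 ± 0.30 log2 units, adjusted p = 0.546 in edgeR).

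Ribosomal proteins are the cargo that these factors assemble. Of 77 tested, 76 had a negative fold change (RPL3 was at 0.10 ± 0.34), with a median of -0.85, beside -0.12 for the 39 biogenesis genes in the same fit. At an unadjusted p under 0.05 in edgeR, 39 of 45 large-subunit and 30 of 32 small-subunit proteins were lower (6.22% of all genes). After adjustment edgeR called 0, and DESeq2 called 24 of 45 and 14 of 32 lower (3.16% of the genes it gave an adjusted p). RPS2 was at 3719 ± 961 before and 1653 ± 387 CPM after the molt (-1.17 ± 0.25 log2 units, adjusted p = 0.0629 in edgeR), a difference larger than that of any of the 39 genes, and -0.97 without pre-molt 5842. RPL36 (-1.48 ± 0.34), RPL10 (-0.86 ± 0.20) and RPS19 (-1.31 ± 0.30) were the next smallest by p. Ribosomal protein genes have many processed copies, so their levels are uncertain. The difference between these lists was not tested, and the libraries at the extremes were not the same, since pre-molt 5842 was the highest library for the summed large-subunit proteins (33517 CPM, against 17418 to 21387 CPM in the other pre-molt libraries) and the lowest pre-molt library for the summed biogenesis genes (1517 CPM).

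**Figure D4:**
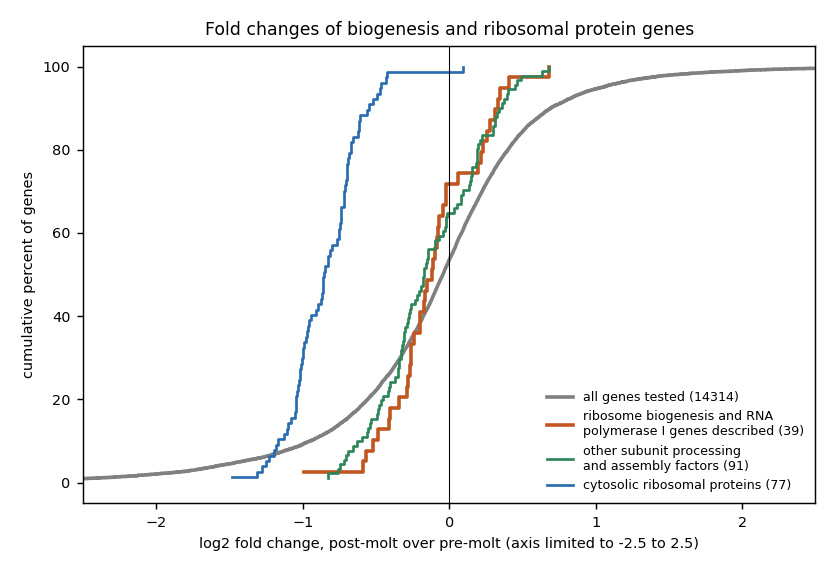
Cumulative percent of genes by log2 fold change, post-molt over pre-molt, for all 14314 genes tested (grey), the 39 ribosome biogenesis and RNA polymerase I genes (orange), 91 other subunit processing and assembly factors (green) and 77 cytosolic ribosomal proteins (blue). The medians are -0.04, -0.12, -0.17 and -0.85.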

How the data were processed

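Skeletal muscle RNA of 8 biopsies (4 pre-molt, 4 post-molt) was sequenced as poly-A selected libraries. The authors used bcl2fastq 2.20 for base calls and STAR for alignment, with the genome of the Hawaiian monk seal as reference, and deposited raw read counts per gene from the aligner. The strand setting is not given in the sources used here, so overlapping antisense genes cannot be told apart. The labels and the study name different library kits. Per the labels' processing notes, R 3.4.3 and DESeq2 1.18.1 served the authors' own test.

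The table had 24349 entries. Of these, 8 name no gene; they held 0.0145 to 0.0187% of a library and were left out. No library was a copy of another (lowest chi-square per degree of freedom 98.95 over 28 pairs). Library totals ranged from 30774895 to 61229829 counts. Genes were filtered with filterByExpr (minimum count 10, minimum total 15), scaled with TMM factors and compared by edgeR's quasi-likelihood method (edgeR 4.0.16, R 4.3.3). P-values were adjusted by Benjamini-Hochberg over 14314 genes with a threshold of 0.05. SE and 95% intervals came from that fit. Log2 CPM used a prior count of 2. Alternatives were other scaling factors, no filter, DESeq2 1.42.0, limma-voom (limma 3.58.1) and libraries left out. The fit was tested on simulated data. Spread between libraries includes differences between seals.

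The genes and lists were chosen with earlier results of these data known. By rule, every gene of the set could be named, values in every library were given for the genes with the smallest p in each role (2 per role) and for POLR1A, POLR1B, UBTF, RRN3, FBL, NCL, NPM1 and MYC, and 2 genes were named from each of the other lists. Per-library values of WDR12, the single library values of RRP12 and SDAD1, and WDR46, PWP2, TBL3, DDX49, EXOSC5, RPL3 and single marker genes were added after their values were seen. The ribosomal proteins named are the 2 with the smallest p for each subunit. Sequences were not used here and no promoter was searched.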

Additional observations from a re-analysis of the deposited data

Results flagged for a closer look

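In groups of 4 libraries, the highest or lowest library of each of the 39 genes was set against the spread of its group with Dixon's criterion, on log2 CPM. Of 78 groups examined, 7 stood out, where chance gives about 5% if groups are independent. These groups were not independent, since all 39 genes share the same 8 libraries. The 7 lay in pre-molt 5842, post-molt 4448 and post-molt 9678, so their number was not read against that share. Low libraries were post-molt 9678 for POLR1D (4.39 CPM, against 7.53 to 8.13 in the other 3) and EBNA1BP2 (13.55 CPM, against 19.8 to 20.6), post-molt 4448 for WDR12 (5.90 CPM, against 11.3 to 12.5) and pre-molt 5842 for BOP1 (70.6 CPM, against 83.1 to 85.7). High libraries were pre-molt 5842 for POLR1D (21.3 CPM, against 10.7 to 11.8), post-molt 4448 for DKC1 (34.1 CPM, against 27.2 to 27.7) and post-molt 9678 for SDAD1 (13.7 CPM, against 6.65 to 7.41). Their causes were not tested.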

How the results depend on the processing

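No paired analysis was possible because the groups share a single animal, seal 5572. None of the 39 genes was called under any alternative tried. The median fold change, -0.12 as reported, was 0.0040 with library size alone, where 1 gene was lower (3.58% of all genes) and 2 were higher (7.52%) at an unadjusted p under 0.05 and 4 had groups that did not overlap (9.33%). With 1 library left out at a time, 1 (without pre-molt 5842, 4.56% of all genes) to 5 (without post-molt 4448, 5% of all genes) genes were lower. In these fits 0 to 1 were higher (4.03 to 5.23% of all genes), and the median ran from -0.19 to -0.08. Groups did not overlap in 7 to 9 genes, beside 12 to 13.9% of all genes. Without both libraries of seal 5572, 0 genes were higher (4.16% of all genes). Without pre-molt 5842 and post-molt 9678, 1 was lower (4.3% of all genes) and 0 higher (4.79%). Without pre-molt 5842 and post-molt 4448, an alternative added once the data had been seen, 0 were higher (4% of all genes). There the median was -0.22 and 11 did not overlap (17% of all genes). Of 702 fold changes recomputed for single genes, 699 moved by less than the spread within groups, and FBL (0.13 with library size alone), POLR1D (-0.51) and NOP16 (0.04, both without pre-molt 5842 and post-molt 9678) moved by more. The causes of these moves were not tested. Leaving out 1 of 4 libraries can hardly move a group mean by that spread, so the 699 are a weak check. They include MYC, at 0.68 with all libraries and 0.17 without post-molt 4448. Over all genes, edgeR called 31 higher and 19 lower, against 335 and 316 in DESeq2, 55 and 39 in limma-voom, 128 and 97 without the filter, 40 and 10 with library size alone, 7 to 28 and 2 to 21 with 1 library left out, 3 and 2 without seal 5572, and 0 and 0 without pre-molt 5842 and either post-molt 9678 or 4448.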

Other observations

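The number of genes with at least 1 count did not follow the depth of the libraries. Post-molt 4448, the deepest library with 61229829 counts, held 13740 genes, and post-molt 5572, with 35471290 counts, held 18046. Post-molt 9678 held the fewest (12677). The 20 most abundant genes took 33.2 to 44.2% of all counts in a library, and the 39 biogenesis genes 0.128 to 0.192%, lowest in pre-molt 5842 and highest in post-molt 4448.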
